A study of Mus musculus with 9 samples.

Results

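The genes described here encode the MHC class II antigen presentation machinery: the class II chains H2-Aa, H2-Ab1 and H2-Eb1, the peptide exchange chain H2-DMa, the invariant chain Cd74 and the transcriptional coactivator Ciita. They were all the probe sets of the array that named exactly 1 of these 6 genes, which gave 14 of the 34945 probe sets and 6 of the 18193 genes measured. In pressure-loaded right ventricle, 5 of the 6 genes were higher than in sham ventricle, by 1.65-fold for Cd74 to 2.43-fold for H2-Ab1. For each of these 5, every banding array lay above every sham array. The sixth, Ciita, lay under the dim level on all 9 arrays. Of 10 genes of endosomal processing, 8 of them enzymes and 2 cystatin inhibitors, 9 were higher, up to 5.19-fold for the protease Ctss. Of 8 costimulatory genes, 1 was higher and 1 lower. Of all 18193 genes, 18.4% were higher and 20% lower at an adjusted p under 0.05. Every banding array lay above every sham array for 17.4% of them.

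MHC class II molecules are pairs of an alpha and a beta chain that show peptides from endosomes to CD4 T cells. The invariant chain Cd74 escorts each new pair to the endosome and blocks its groove, proteases trim it to a short fragment, and H2-DM exchanges that fragment for antigen peptide. Ciita is recruited by factors of the RFX, CREB and NF-Y families bound to the promoters of these genes and is the limiting switch for their transcription. In the heart, class II is known mainly from resident and recruited macrophages and from dendritic cells.

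The tissue was myocardium of the right ventricle, taken from C57BL6J males at 6 to 8 weeks of age, with 5 arrays after pulmonary banding and 4 after sham surgery. Banding narrows the pulmonary artery so that the right ventricle pumps against raised pressure. Both groups shared strain, sex, age and tissue, and the labels name no engineered allele or drug. C57BL6 mice carry a deletion that silences H2-Ea, so the H2-Eb1 chain lacks its usual partner at the cell surface. The study's design text names 5 mice in a wording that may cover both groups, and 4 sham arrays were analysed here. No time after surgery was at hand. Replicates carry numbers, but no label ties a number to its own animal, so the p-values measure the spread between these samples, which may be technical.

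Values are the log2 expression per probe set that the authors deposited, and a difference of 1 is a doubling. They ran from a floor of 2.198, shared by all arrays, to 16.43. The medians of single arrays were 3.23 to 3.31. The dim level was set 2 log2 units over this floor, at 4.198, and a group whose mean lay below it is called dim. The number of arrays limits the precision. All 10 ventricular cardiomyocyte markers were above the dim level on average in both groups. Transcripts of hepatocytes, the main cell of the liver, differed between the groups: the summed linear level of 10 markers was 10384 to 133204 on the sham arrays and 69 to 759 on the banding arrays. Sham replicate 4 and banding replicate 5 held the most within their groups. Of 4 markers of liver macrophages, none passed the test, and Clec4f, which defines them, was at the floor on every array but sham replicate 4, at 4.04. Cd5l (5.84) and Vsig4 (8.40) were also highest on sham replicate 4 among the sham arrays. Single banding arrays reached 7.70 for Cd5l (replicate 3) and 8.42 for Vsig4 (replicate 1). A comparison of groups says little about a signal on 1 array. Since every sham array held more of the hepatocyte transcripts than any banding array, liver transcripts and group cannot be told apart. The results were recomputed without sham replicate 4 and banding replicate 5. The remaining sham arrays still held 10384 to 26965 and the remaining banding arrays 69 to 75, so liver transcripts and group cannot be told apart there either.

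The promoters of class II genes are known for an X box, which RFX binds, followed by a Y box, which NF-Y binds. The sequences shown are the 250 bases before the RefSeq gene start on build GRCm38.p6, written 5′ to 3′ along the gene, and RefSeq windows were at hand for H2-Aa, H2-Eb1 and H2-DMa among the members. Capitals mark GCAAC, letters found in the core of X boxes, and CTGATTGG, letters of the Y box. H2-Aa and H2-Eb1 are shown because both are members that rose, and H2-Oa because it carries the same arrangement and was dim in both groups.
H2-Aa, chr17:34287824-34288073, minus strand: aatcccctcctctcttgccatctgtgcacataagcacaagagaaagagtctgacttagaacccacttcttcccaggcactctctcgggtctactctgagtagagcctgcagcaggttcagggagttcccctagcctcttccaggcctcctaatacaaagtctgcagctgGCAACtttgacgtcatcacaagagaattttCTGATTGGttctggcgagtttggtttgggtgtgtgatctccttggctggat
H2-Eb1, chr17:34305617-34305866, plus strand: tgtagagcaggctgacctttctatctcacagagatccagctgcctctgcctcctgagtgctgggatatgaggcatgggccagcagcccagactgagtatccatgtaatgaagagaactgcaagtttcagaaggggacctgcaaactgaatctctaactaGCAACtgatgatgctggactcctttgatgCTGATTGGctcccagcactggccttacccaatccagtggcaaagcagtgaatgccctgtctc
H2-Oa, chr17:34092129-34092378, plus strand: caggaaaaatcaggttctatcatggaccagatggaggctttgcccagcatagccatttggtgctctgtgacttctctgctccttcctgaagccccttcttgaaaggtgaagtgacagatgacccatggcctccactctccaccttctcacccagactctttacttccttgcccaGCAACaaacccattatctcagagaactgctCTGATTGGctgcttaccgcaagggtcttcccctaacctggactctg

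In H2-Aa the first motif began at base -81 relative to the gene start, with 25 bases between it and the second. In H2-Eb1 it began at base -91, with 24 between. H2-Oa had 25 bases between the motifs, and H2-Eb2, a further class II beta chain, had 24. Both strands of windows of 300 bases, 250 before and 50 after the start, were searched. GCAAC was in 35.2% of 32851 windows, and CTGATTGG, which itself contains the ATTGG of the CCAAT box, in 4.1%. The pair in this order with 20 to 35 bases between, a spacing chosen after these promoters had been read, was in 0.0852%. H2-DMa had 2 windows and neither held the pair. One of them held GTTGC, the reverse complement of the first motif. Of 25 measured genes with the pair, 12 passed the test, only H2-Aa and H2-Eb1 among them being higher, and 9 were dim in both groups. A match is a description, not a binding site.

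Against the background of all genes, 38.4% passed the limma test at a Benjamini-Hochberg adjusted p of 0.05 and 18.4% passed it as higher in banding. Of the 6 members, 5 passed it, all higher. The median difference of the 6 was 0.89, against 0 over all 18193 genes. Among the 11013 genes above the dim level in 1 group or both, 29.8% were higher. Every banding array lay above every sham array for 5 of the 6 members and for 17.4% of all genes. In a bulk sample, more cells of a type and more RNA per cell cannot be told apart.

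**Figure D1:**
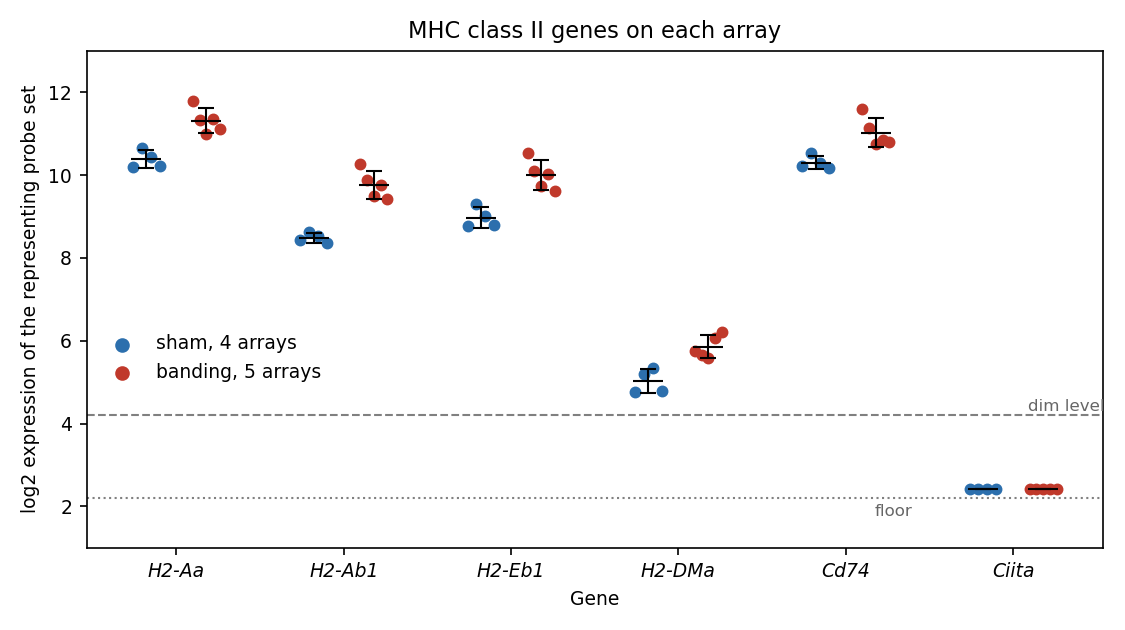
Log2 expression of the probe set representing each of the 6 genes, on 4 sham (blue) and 5 banding (red) arrays, with the mean and SD as bars, the dim level dashed and the floor dotted. The banding points lie above all sham points for every gene but Ciita, which sits at 2.41 on all 9 arrays.

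The 3 classical class II chains were all higher in banding. H2-Ab1, the beta chain of the I-A molecule, was at 10.27, 9.89, 9.49, 9.77 and 9.42 on banding replicates 1 to 5 and at 8.44, 8.62, 8.53 and 8.35 on sham replicates 1 to 4. The groups did not overlap, and the lowest banding array was clear of the highest sham array. Its mean was 9.77 ± 0.34 (SD, n = 5) in banding and 8.48 ± 0.12 (SD, n = 4) in sham. The difference of 1.28 ± 0.17 (SE) on the log2 scale was a 2.43-fold rise (limma, Benjamini-Hochberg adjusted p = 0.000803).

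H2-Aa, the alpha chain that pairs with H2-Ab1, was at 11.79, 11.32, 10.99, 11.36 and 11.11 after banding and at 10.20, 10.65, 10.44 and 10.21 after sham surgery. The groups did not overlap, and the closest pair were banding replicate 3 and sham replicate 2. Its means of 11.31 ± 0.31 (SD, n = 5) and 10.38 ± 0.22 (SD, n = 4) differed by 0.94 ± 0.18 (SE), a 1.92-fold rise (limma, adjusted p = 0.0039).

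H2-Eb1, the beta chain of the I-E molecule, was at 10.53, 10.09, 9.74, 10.03 and 9.62 in banding and at 8.77, 9.31, 9.01 and 8.80 in sham. Again no sham array reached a banding array. The means of 10.00 ± 0.35 (SD, n = 5) and 8.97 ± 0.25 (SD, n = 4) differed by 1.03 ± 0.20 (SE), a 2.05-fold rise (limma, adjusted p = 0.00489). H2-Ea, its partner gene, was dim in both groups, with means of 2.95 in banding and 3.17 in sham.

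H2-DMa, the alpha chain of the peptide exchange molecule, was the dimmest of the 5 genes that rose. It was at 5.76, 5.66, 5.59, 6.08 and 6.21 in banding and at 4.77, 5.20, 5.35 and 4.78 in sham. The groups did not overlap, although banding replicate 3 and sham replicate 3 were close. The means of 5.86 ± 0.27 (SD, n = 5) and 5.02 ± 0.29 (SD, n = 4) differed by 0.83 ± 0.18 (SE), a 1.78-fold rise (limma, adjusted p = 0.00803). Averaged over both H2-DMa probe sets, 1 of which was at the floor, the difference was 0.42 (limma, adjusted p = 0.00814). Of its partner chains, H2-DMb1 was not analysed here and H2-DMb2 had means of 4.90 ± 0.36 (SD, n = 5) in banding and 4.73 ± 0.36 (SD, n = 4) in sham. The H2-DMb2 difference of 0.17 ± 0.24 (SE) did not pass the test (limma, adjusted p = 0.646).

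Cd74, the invariant chain and also a receptor for the cytokine Mif, was at 11.59, 11.14, 10.75, 10.84 and 10.79 in banding and at 10.22, 10.52, 10.29 and 10.17 in sham. The groups did not overlap, with banding replicate 1 standing highest. The means of 11.02 ± 0.35 (SD, n = 5) and 10.30 ± 0.16 (SD, n = 4) differed by 0.72 ± 0.18 (SE), a 1.65-fold rise (limma, adjusted p = 0.0162). Without banding replicate 5 and sham replicate 4, the arrays richest in liver transcripts, the difference was 0.74 but no longer passed (limma, adjusted p = 0.0568). The other 4 genes that rose still passed without those arrays, although the remaining sham arrays still held more liver transcripts than the remaining banding arrays.

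Ciita was at 2.41 on all 9 arrays, a single level close to the floor. A second Ciita probe set was at 2.28, 2.54, 2.28, 2.35 and 2.30 in banding and at 2.28, 2.27, 2.28 and 2.28 in sham, and the last was at the floor throughout. All 3 were dim in both groups, so the arrays gave no measured level of this coactivator and no fold.

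The choice of probe set changed no direction among the 5 genes that rose. Of all single-gene probe sets, 31.4% passed the test and 15.3% were higher, and of the 14 member probe sets 10 passed it, all higher. These were all 4 for H2-Aa, all 3 for H2-Ab1, the only ones for H2-Eb1 and Cd74, and 1 of 2 for H2-DMa, the other being at the floor. H2-Ab1 differences ran from 1.28 to 1.51. H2-Aa differences ran from 0.87 to 2.04, the last from a probe set dim in sham and at least 3.90-fold higher in banding. Probe sets whose names end in _x_at or _s_at can share signal with related genes, and all 4 for H2-Aa were of these kinds. H2-Ab1 was also measured by a probe set outside those kinds, with a difference of 1.38.

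**Figure D2:**
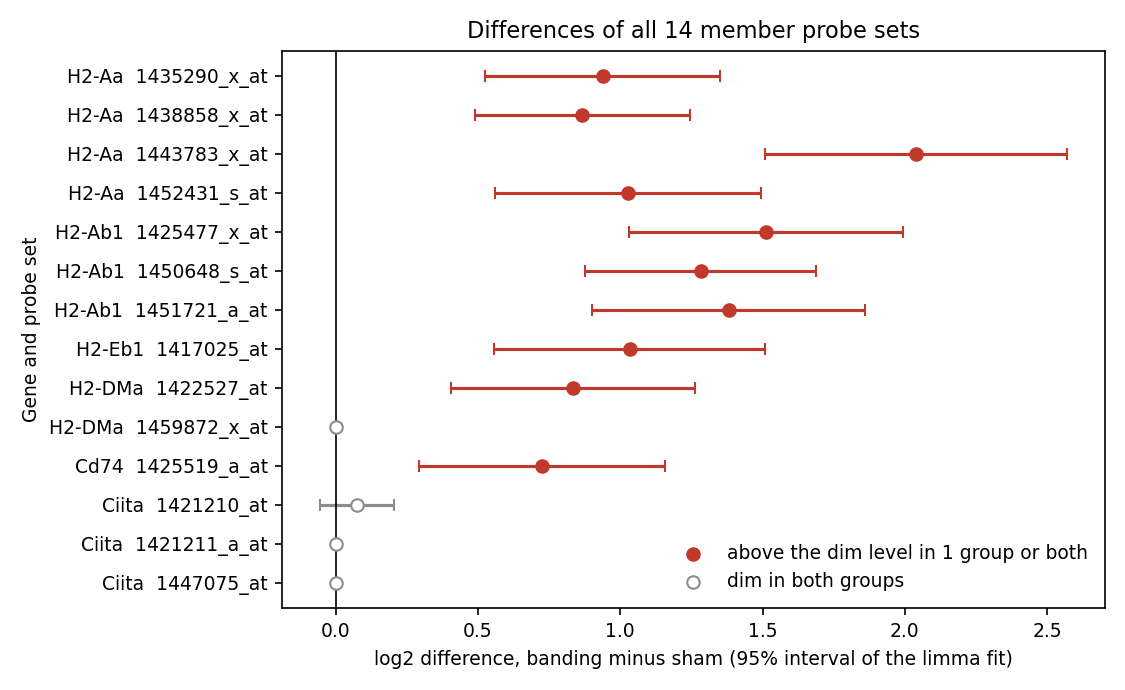
Log2 difference, banding minus sham, of each of the 14 probe sets of the 6 genes, with the 95% interval of the limma fit. The 10 filled points lie to the right of 0 with intervals that do not reach it, and the 4 open points were dim in both groups.

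The probe sets standing for the members did not all rise by the same amount. Probe sets of 1 gene also differed, those of H2-Aa from 0.87 to 2.04, and Cd74 had only 1. The test below covers the spread between arrays, so unequal rises of genes and of probe sets cannot be told apart. The log2 value of each was set against that of Cd74 on the same array and compared by a two-sided exact permutation test over all 126 splits, whose smallest p is 0.00794, with adjustment over the 5 genes compared. H2-Ab1 rose by 0.56 more than Cd74 (exact p = 0.00794, adjusted 0.0198). H2-Eb1 rose by 0.31 more (exact p = 0.0159, adjusted 0.0198), and H2-Aa by 0.21 more (exact p = 0.0159, adjusted 0.0198). Ciita, being at a single dim level, carried only the Cd74 change with its sign turned, and without it in the adjustment these 3 adjusted values were 0.0212. Without the 2 arrays richest in liver transcripts none of the 3 passed (0.59, 0.33 and 0.20, each adjusted 0.0714). The exact p was then 0.0286 for H2-Ab1 and H2-Eb1, the smallest that so few arrays can give, and 0.0571 for H2-Aa. The lost calls therefore cannot show that the differences depend on those arrays. The H2-Aa excess lost its call when sham replicate 1 was left out (0.18, adjusted 0.0893) and when sham replicate 4 was (0.20, adjusted 0.0670). H2-DMa differed from Cd74 by 0.11 (exact p = 0.690), and this difference turned to -0.034 without banding replicate 5.

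Inside the groups, 4 of the genes varied together, and H2-DMa deviated the other way on banding replicates 1, 2 and 5. After removal of the group means, the 6 pairs among H2-Aa, H2-Ab1, H2-Eb1 and Cd74 had r of 0.913 to 0.967 over the 9 arrays. The 4 pairs with H2-DMa had r of -0.0763 to 0.252 over the same arrays. On sham replicates 1 to 4, however, H2-DMa deviated by -0.252, 0.175, 0.323 and -0.246. H2-Aa had the same sign on each, at -0.177, 0.277, 0.0639 and -0.164. Points of a pair share an array and its normalisation, so these values are descriptive. Banding replicate 1 held the highest H2-Aa, H2-Ab1, H2-Eb1 and Cd74, from 0.47 to 0.56 above the group mean, and it held the lowest mean of 6 pan-leukocyte markers, 0.46 below. H2-DMa was highest in banding replicate 5, 0.35 above its group mean.

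**Figure D3:**
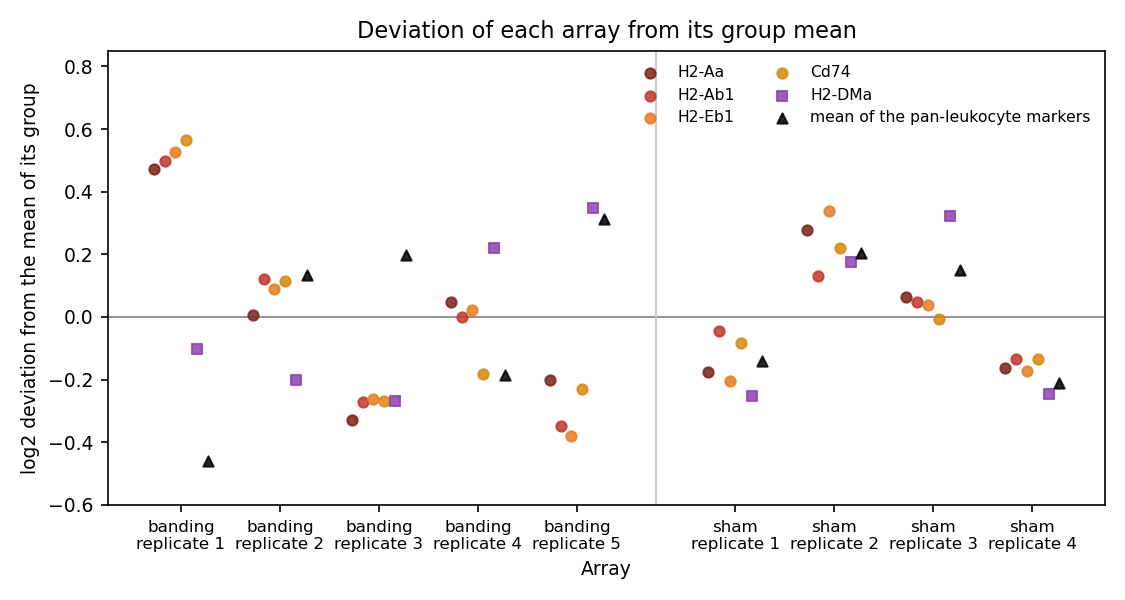
Log2 deviation of each of the 9 arrays from the mean of its own group, for the 5 detected genes and for the mean of 6 pan-leukocyte markers (triangles). On banding replicate 1 the 4 circles lie at 0.47 to 0.56 and the triangle at -0.46. H2-DMa (squares) lies across 0 from the circles on banding replicates 1, 2 and 5. On each sham array it lies on the same side as H2-Aa.

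The genes most like the mean of the 5 detected members, by r over the 9 arrays with group means removed and among 10743 genes, were Azi2 (r = 0.965, rho = 0.90), Ankrd46 (r = 0.934), Stk25 (r = 0.931), Gnas (r = 0.931), C2cd3 (r = 0.917), Dab2ip (r = 0.911), Gstm5 (r = 0.906) and Ccny (r = 0.897). These r values are the highest of a search over 10743 genes with only 9 arrays, and how high chance alone would reach was not tested. The mean also includes H2-DMa, which had r of only -0.0763 to 0.252 with the other members in it. Between the groups the listed genes went both ways. Azi2 was lower in banding by 0.33 on the log2 scale (10.35 against 10.68), as was Gstm5 (10.99 against 11.71), whereas Gnas, Dab2ip and Ccny were higher by 0.09, 0.33 and 0.18. The other 3 did not pass the test. The 6 pan-leukocyte markers had r of -0.564 to -0.0747 with the same mean, over both groups pooled. The groups differed in this. On sham replicates 1 to 4 the member mean deviated by -0.152, 0.228, 0.094 and -0.17. The pan-leukocyte mean went the same way there, by -0.142, 0.205, 0.149 and -0.212. On banding replicates 1, 3, 4 and 5 the 2 means had opposite signs.

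The other genes of the pathway were described in 9 lists with 70 measured genes. Of these, 32 were higher, 6 lower and 32 not past the test, 15 of them dim in both groups, and their median difference was 0.29. The share that passed was 54.3%, against 38.4% of all genes and 62.0% of genes above the dim level in 1 group or both. Of all genes 18.4% were higher and 20% lower, the shares to set beside each list below.

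None of 5 other class II chains passed the test: H2-Oa, H2-Ob, H2-Eb2 and H2-Ea were dim in both groups, and only H2-DMb2 was above the dim level. H2-Oa and H2-Ob form the H2-O molecule, which restrains H2-DM in B cells.

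The factors that recruit Ciita went both ways, with 3 of 7 higher and 3 lower. Among the RFX subunits, Rfxank fell by 1.26 on the log2 scale (7.76 ± 0.09 (SD, n = 4) in sham, 6.50 ± 0.27 (SD, n = 5) in banding, limma adjusted p = 0.00031), and Rfxap fell by 0.77 (limma adjusted p = 0.0136). Rfx5, the remaining subunit, had means of 6.76 and 6.77. Of the NF-Y subunits, Nfyc fell by 1.02, Nfyb was higher by 0.36 and Nfya was higher by 0.51, the last not passing without any 1 of 6 of the arrays (banding replicates 3, 4 and 5, sham replicates 2, 3 and 4; adjusted p of 0.0609 to 0.0790). Creb1, which binds between the X and Y boxes, was higher by 0.54.

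Interferon gamma, the classical inducer of Ciita, was at the floor on every array, as was Socs1, an inhibitor that it induces. Of 7 genes of this input, 1 was higher and 2 were lower. The receptor chains moved apart: Ifngr1 was higher by 0.60 and Ifngr2 fell by 0.98. Jak1, a kinase of the receptor, fell by 0.36. Irf1, an immediate target, was at 7.99 ± 0.30 (SD, n = 5) in banding and 7.98 ± 0.28 (SD, n = 4) in sham and did not pass.

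Regulators of antigen-presenting lineages were higher for 5 of 8 and lower for none. Irf8, which directs dendritic cell and monocyte fates, rose 3.40-fold, from 5.64 ± 0.45 (SD, n = 4) to 7.41 ± 0.20 (SD, n = 5) (limma, adjusted p = 0.000472). Prdm1, a repressor of Ciita in plasma cells, rose 3.01-fold and Id2 2.77-fold. Spi1, the myeloid factor PU.1, rose 1.85-fold, and Zbtb46, known from classical dendritic cells and also from endothelium, rose 1.60-fold.

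Endosomal processing genes were higher for 9 of 10, with none lower, 1 of the 9 being an inhibitor. Ctss, the protease that completes the cleavage of the invariant chain in antigen-presenting cells, rose 5.19-fold, from 11.15 ± 0.22 (SD, n = 4) to 13.52 ± 0.45 (SD, n = 5) (limma, adjusted p = 0.000229). Ctsz rose 4.92-fold. Ifi30, the thiol reductase that opens disulphide bonds of antigen, rose 3.33-fold. Lgmn, an asparaginyl protease, rose 1.79-fold and Ctsl 1.69-fold. Cst3, an inhibitor of these cathepsins, also rose, by 1.40-fold. Ctsh was higher by 0.23, which did not pass without any 1 of 7 of the arrays (all but banding replicate 4 and sham replicate 4; adjusted p of 0.0564 to 0.118).

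For turnover and traffic of class II, 4 of 6 were higher. Marchf1, the ligase that sends surface class II for degradation, was higher by at least 1.53-fold against a dim sham group, and Cd83, which counters that ligase, rose 1.68-fold. Lamp2 rose by 0.60 on the log2 scale. Marchf8 was higher by 0.30 and lost its call when sham replicate 2 or 3 was left out (adjusted p of 0.0571 and 0.0558).

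Costimulation gave 1 of 8 higher and 1 lower. Icam1, an adhesion ligand for T cells, rose by 0.69, and Icosl fell by 0.82. Cd86 had means of 6.24 ± 0.11 (SD, n = 5) in banding and 6.14 ± 0.27 (SD, n = 4) in sham, and Cd40 of 5.30 ± 0.06 (SD, n = 5) and 5.03 ± 0.29 (SD, n = 4). Neither passed the test, and Cd80 was dim in both groups.

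Class I presentation genes were higher for 6 of 13, with none lower. H2-D1, a class I heavy chain, rose 2.13-fold, and B2m, the chain all class I molecules share, rose 1.72-fold. Tap1, which pumps peptides into the endoplasmic reticulum, rose 2.46-fold, and Pdia3, which helps load them, 2.06-fold. H2-K1 differed by 0.49 (limma, adjusted p = 0.0863). Nlrc5, the class I counterpart of Ciita, was dim in sham and differed by 0.83 (limma, adjusted p = 0.155). Both passed without banding replicate 5, at 0.59 (adjusted p = 0.0367) and 1.09 (adjusted p = 0.0364). Of the 6 that were higher, Calr (0.35) lost its call without any 1 of 4 arrays (banding replicates 1, 2 and 5, sham replicate 2; adjusted p of 0.0582 to 0.0696). Tapbp (0.27) lost its call without any 1 of 6 (banding replicates 1, 2 and 3, sham replicates 1, 2 and 3; adjusted p of 0.0517 to 0.0930).

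Genes that meet class II or Cd74 at the cell surface gave 3 of 6 higher. Cd44, the signalling partner of Cd74, rose 4.45-fold, Cxcr4, another Mif receptor, 4.0-fold, and Mif itself 1.79-fold. Cd4 and Lag3, which bind class II on T cells, and Cxcr2 were at the floor.

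In gene order along chromosome 17, 4 of the 6 members lie to either side of a run of class I processing genes. H2-DMa comes before that run, and H2-Ab1, H2-Aa and H2-Eb1 come after it. Brd2, next to H2-DMa on one side, was higher by 0.44 and was named for its position. Of the genes between H2-DMb1 and H2-Ob, Tap1 rose while Psmb9, Psmb8 and Tap2 did not pass the test. H2-Ab1, H2-Aa and H2-Eb1 are adjacent and all rose, and H2-Ob on one side and H2-Eb2 on the other were dim.

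**Figure D4:**
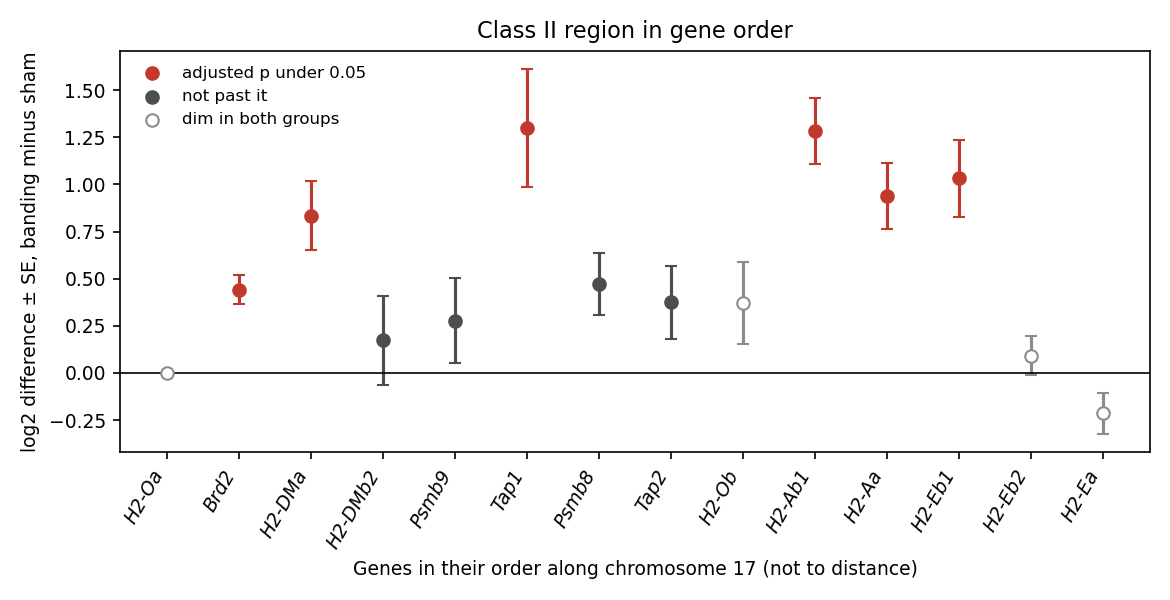
Log2 difference, banding minus sham, with its SE, for measured genes of the class II region in their order on chromosome 17, not to distance. Red points passed the test, grey points did not and open points were dim in both groups. H2-Ab1, H2-Aa and H2-Eb1 stand together at 0.94 to 1.28, between genes that were dim.

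Markers of the cells that carry class II moved to different extents. All 6 pan-leukocyte markers rose, with a median difference of 1.51. Laptm5 rose 4.58-fold, Cd52 4.32-fold, Ptprc, the common leukocyte antigen, 2.85-fold, and Lcp1 2.23-fold. Their summed linear level was 7751 to 13544 in banding and 2923 to 3834 in sham, a 3.25-fold ratio of means. Of 16 macrophage markers, 12 were higher and 3 lower. Adgre1 rose 2.72-fold, Fcgr1 5.85-fold and Cd68 2.54-fold, whereas Timd4, Folr2 and Cd163, known from resident macrophages, fell. Not all such markers fell: Mertk rose 1.46-fold, and Mrc1, at 10.34 in banding and 10.33 in sham, did not pass. Whether the liver transcripts on the sham arrays bear on these falls was not tested. The summed level of the 16 macrophage markers was 27928 to 41837 in banding and 14605 to 17369 in sham.

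Lymphocyte and dendritic cell markers were mostly dim. Of 11 dendritic cell markers, 8 were dim in both groups, Itgax, Flt3 and Cd209a among them, and only Zbtb46 was higher. Dpp4 and Clec10a, also above the dim level, differed the other way, by -0.82 and -0.58. Neither passed the test (limma, adjusted p = 0.0762 and 0.116), but Dpp4 passed as lower without sham replicate 3 (adjusted p = 0.0455). The summed level of the 11 markers was 321 to 371 in banding and 282 to 377 in sham. Of 9 B cell markers, 8 were dim, Ms4a1 and Cd79a among them, and Blnk, which myeloid cells also express, was higher by 1.02. Their summed level was 144 to 256 in banding and 103 to 129 in sham. Of 9 T cell markers, 7 were dim, Cd3e and Cd4 among them, while Thy1, which fibroblasts also express, rose and Cd28 fell. Banding replicate 3 alone exceeded the dim level for Cd3d (5.30, the other banding arrays 2.24 to 2.94), Cd8b1 (5.52, the others 2.20 to 2.61) and Cd8a (5.02, the others 3.28 to 3.52). The summed level of the 9 was 384 to 635 in banding and 158 to 242 in sham, of which Thy1 alone made 325 to 456 and 79 to 157. Without Thy1 the sum of the other 8 was 52 to 180 in banding and 73 to 85 in sham. The part of each cell type in the class II rise was not tested.

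The class II genes were also set against the mean of the 6 pan-leukocyte markers on each array, a comparison added after the values were seen. That mean rose by 1.65, from 8.94 ± 0.21 (SD, n = 4) to 10.59 ± 0.32 (SD, n = 5). The members' rise minus the rise of this mean was -0.71 for H2-Aa, -0.37 for H2-Ab1, -0.62 for H2-Eb1, -0.82 for H2-DMa and -0.93 for Cd74. None passed the exact permutation test after adjustment over the 5, with adjusted p from 0.0794 to 0.294. Without banding replicate 1 the differences were -0.61 to -1.19 and each had an exact p of 0.0286 (adjusted 0.0286), the smallest that 4 against 4 arrays can give. That array had been seen to stand apart before it was left out. Other choices made the H2-Ab1 value smaller: -0.20 without banding replicate 5, -0.25 without banding replicate 3, -0.23 against Ptprc alone and -0.18 without both arrays richest in liver transcripts, with none of the members passing under these 4. Against the mean of the 16 macrophage markers, which rose by 0.81, the differences were 0.12, 0.47, 0.22, 0.02 and -0.09 in the same order, and none passed. That mean averages 12 markers that were higher with 3 that were lower: Timd4 (-2.28), Folr2 (-1.39) and Cd163 (-0.99). The median difference of the 16 was 1.15, so a smaller rise of the mean does not stand for every macrophage marker.

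**Figure D5:**
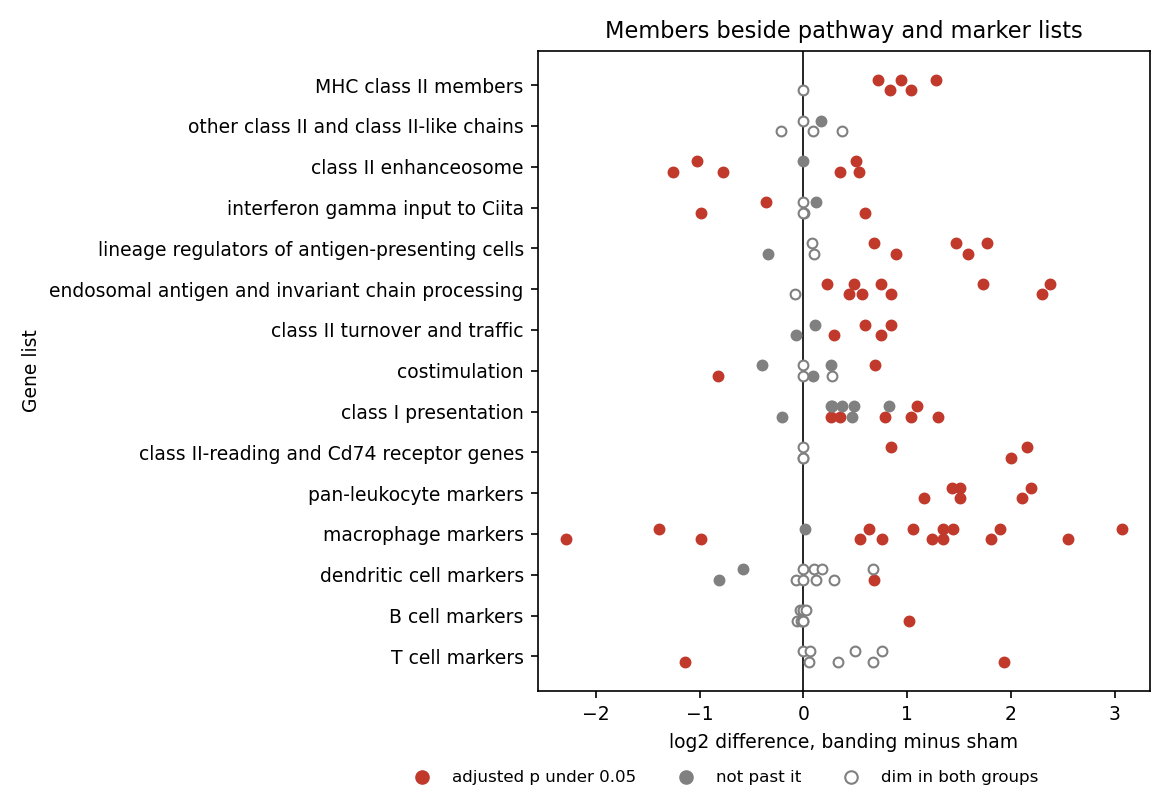
Log2 difference, banding minus sham, of every measured gene in the member, pathway and marker lists, red where it passed the test, grey where it did not and open where it was dim in both groups. The 5 members that rose lie between 0.72 and 1.28, left of the 6 pan-leukocyte markers except for Lcp1 at 1.16.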

How the data were processed

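Right ventricular RNA of 5 banding and 4 sham samples was measured on one-colour Affymetrix arrays. The authors deposited 1 log2 value for each probe set and array. RMA and GCRMA are named, per the submitters' processing notes, with neither version nor role, and the scale was taken to be log2 from how far the values reach. Of 45101 probe sets, 64 controls, 9160 naming no gene and 932 naming several were left out. Where a gene had several probe sets, the brightest on average across the 9 arrays stood for it, and dim genes were kept.

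Groups were compared with limma 3.58.1 (R 4.3.3; lmFit, eBayes, two-sided, no covariate, Benjamini-Hochberg over 18193 genes, or over 34945 probe sets, threshold 0.05). The procedure was tested on simulated data. The labels give no batch. No label says that replicate numbers pair the samples. Same-numbered arrays' deviations had r of -0.0343 to 0.0357 over 10748 genes, which cannot exclude a pairing that touches few genes. Folds against a dim group use the dim level and are given as "at least". Differences between genes were tested by exact permutation. Motif searches and plots were made in Python 3.11.15 (pandas 2.3.3, matplotlib 3.10.9).

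The members and lists were chosen with earlier results of these data known. Named genes were the members, up to 4 genes of smallest p per list, a fixed set of class II, marker and signalling genes, and the 8 genes most like the members. Chosen after their values were seen were Ctsh, Nfya, Calr, Tapbp, Cd3d, Cd3g, Cd8b1, Socs1, Cxcr2, Psmb9, Psmb8, Tap2, Brd2, Folr2, Cd163, Mertk, Mrc1 and Lcp1. Alternatives covered probe set choice, dim filters and floors, normalisation, limma settings, a replicate block and leaving out arrays.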

Additional observations from a re-analysis of the deposited data

Results flagged for a closer look

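In 25 of 198 groups of arrays examined, 1 array stood apart from the others of its group by a wide gap. The rate of about 1 in 20 that chance gives does not allow for tied values. Where the other arrays were tied, as for H2-Eb2, Cd79a and Rfx5, any small departure was flagged. The 25 can therefore not be set against that rate. Values are log2 expression.

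Among class II genes these were the second Ciita probe set on banding replicate 2 (2.54, the others 2.28 to 2.35), H2-DMb2 on banding replicate 2 (5.53, the others 4.69 to 4.89), and H2-Eb2 on banding replicate 1 (2.70) and sham replicate 4 (2.24), all its other arrays being at 2.23. Ciita and H2-Eb2 were dim throughout.

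Among pathway genes, Rfx5 stood low on sham replicate 4 (6.71, the others 6.79). Sham replicate 3 stood high for Ifngr1 (8.55, the others 8.25 to 8.26), Ctsl (12.52, the others 12.31 to 12.33) and Mif (12.15, the others 11.83 to 11.87). Psmb9 stood low on sham replicate 1 (6.72, the others 7.35 to 7.46), and Cd86 stood high on banding replicate 5 (6.43, the others 6.19).

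Among markers, Fcgr1 stood high on sham replicate 2 (6.01, the others 5.38 to 5.46), Itgax on banding replicate 5 (4.82, the others 2.20 to 2.77) and Timd4 on banding replicate 1 (3.10, the others 2.20 to 2.31). Banding replicate 3 stood high for 5 T cell genes: Cd3d (5.30, the others 2.24 to 2.94), Cd8b1 (5.52, the others 2.20 to 2.61), Cd8a (5.02, the others 3.28 to 3.52), Cd3g (3.88, the others 2.20) and Cd3e (2.48, the others 2.20). In sham, Cd3d stood low on replicate 1 (2.20, the others 2.26) and Cd8b1 high on replicate 3 (2.51, the others 2.20). Cd79a stood high on banding replicate 1 (2.23) and sham replicate 2 (2.23), the others being at 2.21. Alb stood high on banding replicate 5 (8.51, the others 2.34 to 3.31), Clec4f on sham replicate 4 (4.04, the others 2.20) and Myl3 on sham replicate 3 (15.91, the others 15.87).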

How the results depend on the processing

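The count of 5 member genes past the threshold was 5 without any 1 array, and the count of 10 member probe sets was 9 to 10. With the replicate number as a block, 2 of 6 genes and 4 of 14 probe sets passed in limma, and H2-Aa (adjusted p = 0.0544), H2-DMa (0.103) and Cd74 (0.0628) did not. Whether the numbers pair the samples is not known from the labels. Without _x_at and _s_at probe sets H2-Aa had none left, and a filter on dim genes left Ciita untested. Quantile normalisation and median centring gave Ciita differences of 0.04 and -0.13 that passed, since its single level takes on each array's shift. Pathway genes past the threshold numbered 32 to 47 over 19 alternatives, against 38.

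Minus the Cd74 change, H2-DMa turned to -0.31 with the mean of all probe sets, -0.052 with quantile normalisation and -0.071 without both arrays richest in liver transcripts, an alternative chosen after seeing the data. Without those 2 arrays the other values were 0.20 for H2-Aa, 0.59 for H2-Ab1 and 0.33 for H2-Eb1. All 3 lost their call (adjusted p of 0.0714 by exact permutation), in a test with fewer splits. The values for Ciita, -0.74 there and -0.80 to -0.58 without 1 array, only repeat the Cd74 change with its sign turned. Without 1 array the ranges were 0.16 to 0.24 for H2-Aa, 0.51 to 0.59 for H2-Ab1, 0.26 to 0.35 for H2-Eb1 and -0.034 to 0.28 for H2-DMa.

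Minus the pan-leukocyte mean, the ranges without 1 array were -0.95 to -0.58 for H2-Aa, -0.61 to -0.20 for H2-Ab1, -0.87 to -0.45 for H2-Eb1, -0.92 to -0.70 for H2-DMa and -1.19 to -0.79 for Cd74. Against Ptprc alone they were -0.57, -0.23, -0.48, -0.68 and -0.79, and without both arrays richest in liver transcripts -0.57, -0.18, -0.43, -0.84 and -0.77, in the same order. Against the macrophage mean, which averages markers that rose and markers that fell, the signs turned to 0.12 for H2-Aa, 0.47 for H2-Ab1, 0.22 for H2-Eb1 and 0.020 for H2-DMa. Where a comparator or probe set changed a sign, the cause was not tested. Signal over background limits Ciita, H2-Ea, H2-Oa, H2-Ob and H2-Eb2, which were dim.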

Other observations

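Markers of cells that make up most of the ventricle moved as well. All 6 fibroblast markers were higher, with a median log2 difference of 1.5. Of 7 endothelial markers, which include cells able to carry class II, 5 were higher and none lower, with a median of 0.60. Of 10 ventricular cardiomyocyte markers, 6 were lower and none higher, with a median of -0.25. Of 5 monocyte and granulocyte markers, 2 were higher and none lower. Of these 2, Csf3r (0.47, limma adjusted p = 0.0497) lost its call without any 1 of 5 arrays (banding replicates 2, 3 and 5, sham replicates 1 and 4; adjusted p of 0.101 to 0.128).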
